A study of Homo sapiens with 6 samples.

Results

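The oligosaccharyltransferase of the endoplasmic reticulum was followed by its 8 subunit genes TUSC3, MAGT1, STT3A, STT3B, RPN1, RPN2, DDOST and DAD1. TUSC3 was chosen by its lower signal on the arrays of methotrexate (MTX)-resistant cells, and the other 7 because their products belong to the same complex. They are 8 of the 19775 genes named on the array. Every probe set that the platform annotation assigns to one of them was used, 17 of the 54613 probe sets on the array that were not controls. Of these 17, 14 were bright enough to be tested, 2 of the 5 for TUSC3 and all 12 for the other subunits. The difference of TUSC3 between the groups chose the gene, so it is given as a description, with no test.

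Expression was measured in Caco2 cells, an established line from a human colon cancer, on 6 Affymetrix HG U133 Plus 2.0 arrays. RNA came from parental cells, sensitive to MTX and not selected with the drug (3 arrays), and from cells selected with stepwise concentrations until they grew in 10 µM MTX (3 arrays). The parental cells were kept in Ham's F12 medium with fetal bovine serum, and the resistant cells in a medium without thymidine, glycine and hypoxanthine that held dialyzed serum, so drug selection and medium cannot be told apart. Whether the resistant line was 1 clone, and whether the 3 samples of a group were separate cultures, is not given in the sources used here, and the p-values then cover only how far these samples spread, which may be technical.

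N-glycosylation starts when the oligosaccharyltransferase moves a ready-made glycan from a dolichol lipid to an asparagine of a protein that enters the endoplasmic reticulum. The transfer is catalysed by STT3A or STT3B, which sit in separate forms of the complex around the shared subunits RPN1, RPN2, DDOST and DAD1. The STT3A form acts at the translocon while a protein is still being made, and the STT3B form reaches sites that were skipped. The STT3B form carries either TUSC3 or its paralog MAGT1, membrane proteins with a thioredoxin-like fold that help to hold substrate cysteines. Loss of TUSC3 is known as a cause of intellectual disability, and loss of MAGT1 of an immune deficiency.

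The promoter of MAGT1 is shown because MAGT1 is the paralog that can take the place of TUSC3 in the STT3B form and its signal differed little between the groups. The 250 bases before a RefSeq start of MAGT1, at chrX:77895436-77895685 of GRCh38.p14 on the minus strand, are written from 5′ to 3′ with the CCAAT box in capitals on either strand (CCAAT or ATTGG).
MAGT1 promoter: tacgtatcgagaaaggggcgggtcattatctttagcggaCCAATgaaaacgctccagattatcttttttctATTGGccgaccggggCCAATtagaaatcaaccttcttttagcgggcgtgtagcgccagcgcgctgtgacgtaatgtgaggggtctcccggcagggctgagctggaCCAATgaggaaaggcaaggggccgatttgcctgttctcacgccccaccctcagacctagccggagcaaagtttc
The window holds 4 matches, CCAAT 3 times and ATTGG 1 time. RefSeq windows were at hand for 5 of the 8 genes, 6 windows in all. MAGT1 had another window besides that shown, with 3 matches. Of the 5 genes 4 (MAGT1, STT3A, DDOST and DAD1) held a match while RPN2 did not. Over all 35116 windows of this length 32% held one, a share of windows and not of genes. No window was used for TUSC3, STT3B and RPN1.

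The arrays are described first. The median signal lay between 11.1 and 12.8 on the parental arrays and between 10.6 and 11.5 on the resistant arrays, and each level below is a signal divided by the median of its array, with the 3 levels of a group given in the order of replicates 1, 2 and 3. Taken across probe sets, which do not count as independent, any pair of resistant arrays had an r of at least 0.968. Parental arrays 1 and 2 had an r of 0.966 with each other, and of 0.949 and 0.946 with parental array 3, which stood somewhat apart. With the resistant arrays parental array 3 had an r of 0.935 to 0.939, and parental arrays 1 and 2 had 0.914 to 0.929. Of 11 measured markers of intestinal epithelium 6 were above the array median on all arrays, among them EPCAM, VIL1 and KRT20, whereas the intestinal regulator CDX2 and the brush border enzymes SI and ALPI had group means below it. The summed level of the 11 ran from 1406.5 to 1789.9 on parental and from 2254.6 to 2345.9 on resistant arrays. Of 6 fibroblast markers 1 was above the median on all arrays, and their sum ran from 4.95 to 5.70 and from 7.49 to 8.38. LUM, a matrix proteoglycan, had a mean level of 0.272 on parental and 2.57 on resistant arrays. It was bright enough to be tested only through the resistant arrays, so its difference is given with no test. Of 4 leukocyte markers 2, CD14 and LAPTM5, were above the array median on all arrays (sums from 9.98 to 22.1 and from 9.55 to 12.2). LAPTM5 fell from a mean of 4.30 to 2.23 (adjusted p = 0.0468, limma), and CD14 did not pass the test. Of 3 endothelial markers 1, PECAM1, was above the median on all arrays (sums from 1.85 to 3.15 and from 2.23 to 2.47). The leukocyte marker PTPRC and the endothelial marker CDH5 had group means below the median. The part of these shifts in the results below was not tested.

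In both of its bright probe sets TUSC3 gave a signal above the array median on every parental array and below it on every resistant array. Probe set 213423_x_at, the brightest, gave 5.49, 4.22 and 6.06 times the array median in parental cells. In resistant cells it gave 0.369, 0.566 and 0.0435. The groups did not overlap, and on the log2 scale the resistant values ranged more widely than the parental ones. The difference of log2 means was -4.64, or 24.9-fold lower in resistant cells, with an SD on the log2 scale of 0.27 in parental and 1.98 in resistant cells (n = 3 arrays each).

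Probe set 209228_x_at gave 7.01, 2.30 and 5.02 times the array median in parental and 0.0541, 0.113 and 0.130 in resistant cells. Again all resistant values lay below all parental values, with parental array 2 lower than the other parental arrays. The difference was -5.54 (46.6-fold lower), with an SD of 0.83 in parental and 0.68 in resistant cells. By size these ranked 2 and 1 among the 26563 tested probe sets from the largest decrease, a list in which 1.9% were both past the test and at least 2-fold lower. As this difference chose the gene, the ranks only describe that choice and lend it no support. Both probe sets were bright enough to be tested only through the parental arrays (mean levels of 5.26 and 4.77, against 0.326 and 0.0992 in resistant cells). In the order of signals on one array, 213423_x_at stood above 71.9% to 76.5% of all probe sets on the parental arrays and above 2.87% to 36.4% on the resistant arrays. For 209228_x_at these shares were 64.4% to 77.3% and 4.84% to 14.9%.

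The size of the difference rests on resistant signals at the low end of the array, where the deposited values carry no detection call. With signals under the 25th percentile of each array raised to it, the differences of 213423_x_at and 209228_x_at were 13.3-fold and 14.6-fold, and with 0.5 added to each level they were 7.17-fold and 8.15-fold. The probe sets then ranked 3 and 2 with the raised signals, and 6 and 5 with the offset. Without resistant array 3 the value of 213423_x_at was 11.4-fold and without resistant array 2 it was 41.0-fold, while that of 209228_x_at ran from 35.6-fold to 63.9-fold with single arrays left out. Both bright probe sets are of the platform type whose probes can also match other transcripts, and fewer cells with TUSC3 RNA and less of it per cell cannot be told apart in bulk samples.

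The other 3 probe sets of TUSC3, not of the type that can match other transcripts, were dim in both groups. For 209227_at the levels were 0.775, 0.563 and 1.03 in parental and 0.685, 0.0283 and 0.157 in resistant cells. The range was 0.135 to 0.788 and 0.0849 to 0.820 for 232770_at, and 0.106 to 0.468 and 0.00901 to 0.496 for 235801_at, in parental and resistant cells. In each of the 3 the groups overlapped, and as their means lay below the array median they were not tested.

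**Figure D1:**
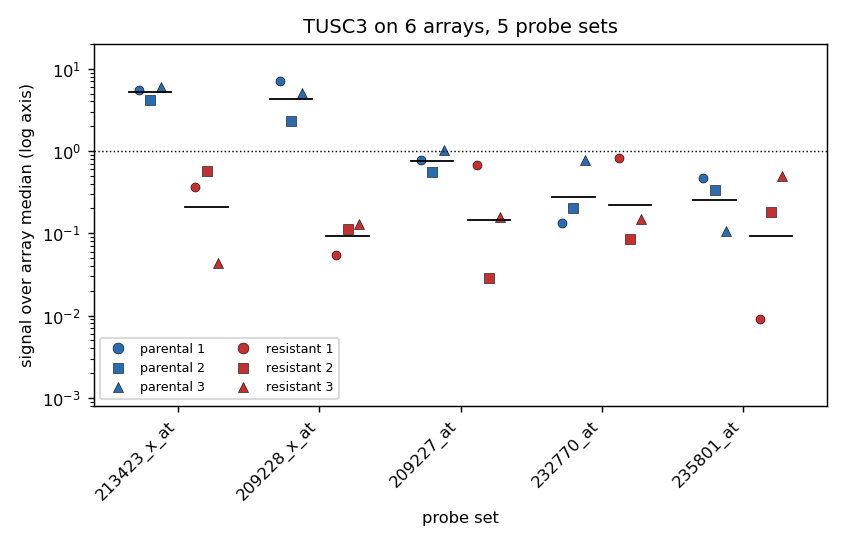
Level of the 5 TUSC3 probe sets on each array, as signal over the array median, drawn on a log axis (blue for parental, red for resistant, 1 marker shape per replicate number, bars at geometric means, dotted line at the array median). In 213423_x_at and 209228_x_at the parental arrays lie between 2.30 and 7.01 and the resistant arrays at or below 0.566, and in the 3 dim probe sets the groups overlap.

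MAGT1, the paralog that can stand in the same place of the complex, was measured by 3 probe sets, and 0 of these passed the test. The brightest, 224899_s_at, gave 68.1, 64.0 and 64.0 times the array median in parental and 65.5, 63.4 and 66.0 in resistant cells. The values of the groups overlapped and no array stood apart. The difference was -0.01 ± 0.11 on the log2 scale (SE, n = 3 arrays per group, limma adjusted p = 0.969), with a 95% interval from -0.25 to 0.23. In 221553_at the levels were 17.7 to 22.3 in parental and 14.4 to 20.6 in resistant cells (-0.18 ± 0.17), and in 210596_at the parental levels lay within the resistant range of 10.5 to 12.9 (0.07 ± 0.15).

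Relative to MAGT1 on the same array, the TUSC3 signal had a change from parental to resistant cells of -4.45 to -4.71 on the log2 scale with 213423_x_at, over the 3 MAGT1 probe sets, and of -5.36 to -5.62 with 209228_x_at. These are changes of a ratio within an array, in which a scaling factor of the array cancels. They compare changes and not the levels of the paralogs, since signals of different probe sets have no common scale.

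The catalytic subunits were each measured by 1 probe set and did not pass the test. STT3B, whose form of the complex holds TUSC3 or MAGT1, gave 84.8, 100.5 and 88.9 times the array median in parental and 82.6, 57.8 and 80.1 in resistant cells. All resistant values lay below the parental ones, by little on arrays 1 and 3 and by more on array 2. The difference of STT3B was -0.33 ± 0.15 (SE, limma adjusted p = 0.201), with a 95% interval from -0.67 to 0.01.

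STT3A, which works at the translocon, gave 39.9, 45.2 and 53.6 in parental and 50.9, 58.0 and 50.7 in resistant cells. Parental array 3 lay among the resistant arrays. The difference of STT3A was 0.21 ± 0.14 (limma adjusted p = 0.375, 95% interval from -0.11 to 0.53). The log2 ratio of STT3A to STT3B, set to a parental mean of 0, was -0.10, -0.16 and 0.26 in parental and 0.29, 0.99 and 0.33 in resistant cells. The mean change of this ratio was 0.54, with an SD of 0.23 in parental and 0.40 in resistant cells, and with 3 arrays in each group the smallest p of an exact permutation test is 0.1.

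Among the shared subunits, RPN1 and RPN2, the ribophorins that lie next to the ribosome and the translocon, were not past the test. RPN1 gave 76.3, 79.2 and 81.9 times the array median in parental and 82.8, 81.4 and 86.7 in resistant cells (0.08 ± 0.11, limma adjusted p = 0.663). The brightest of 3 probe sets of RPN2 gave 230.6, 186.3 and 226.9 in parental and 244.4, 237.5 and 259.1 in resistant cells. The RPN2 groups did not overlap, but parental array 2 lay lower than the other parental arrays and the difference was 0.21 ± 0.11 (limma adjusted p = 0.245). The other probe sets of RPN2 gave 0.19 in 213491_x_at and 0.11 in 208689_s_at, and in the latter the groups overlapped. The brightest, 213399_x_at, and 213491_x_at are of the type that can match other transcripts.

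DDOST, a membrane subunit needed for the stability of the complex, was read differently by its probe sets. In 208675_s_at the levels were 132.8, 146.1 and 144.8 in parental and 136.2, 140.5 and 152.8 in resistant cells (0.02 ± 0.10, limma adjusted p = 0.922). In 208674_x_at, which can match other transcripts, they were 61.5, 76.0 and 64.1 and 57.6, 50.4 and 60.3 (-0.26 ± 0.13, limma adjusted p = 0.240). The groups overlapped in the first and did not in the second, and neither passed the test.

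DAD1, a small subunit first known as a defender against apoptotic death, gave 65.8, 67.0 and 65.4 in parental and 74.5, 69.1 and 80.0 in resistant cells. All resistant values were higher, and the difference was 0.17 ± 0.11 (limma adjusted p = 0.355, 95% interval from -0.08 to 0.42).

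**Figure D2:**
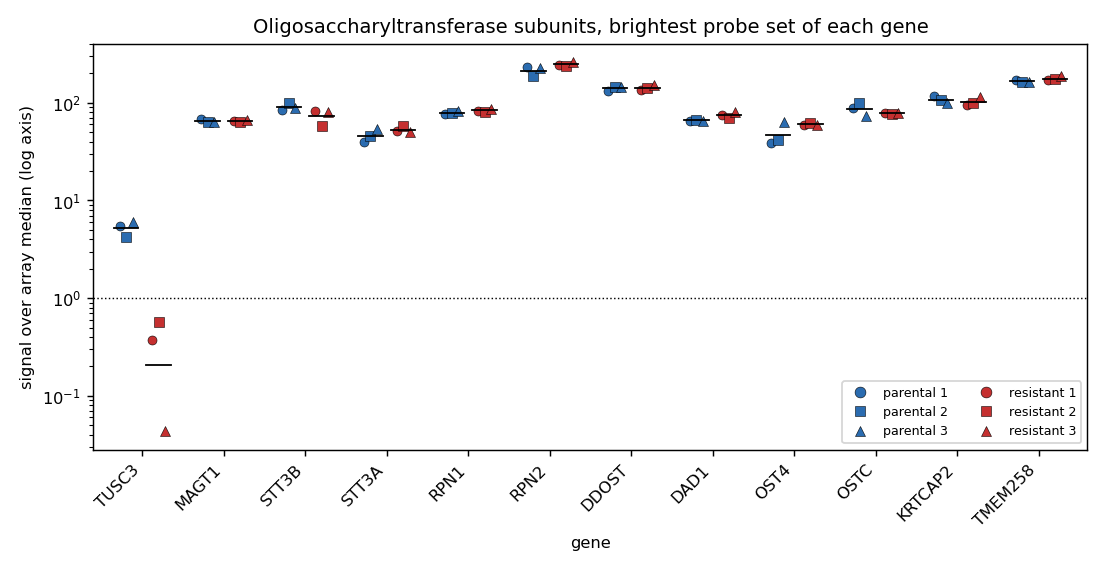
Level of the brightest probe set of each of the 8 subunits and the 4 small subunits on each array, as signal over the array median, drawn on a log axis (blue for parental, red for resistant, 1 marker shape per replicate number, bars at geometric means). The geometric mean of TUSC3 lies 24.9-fold lower in resistant than in parental cells, and the group means of the other genes shown differ by at most 1.28-fold, for OST4.

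Over the 7 subunits other than TUSC3, 0 of 12 probe sets rose and 0 fell at an adjusted p below 0.05 in limma, with 0 at an unadjusted p below 0.05 and 0 by the methods' t-test after adjustment. Over all tested probe sets 10% were past this threshold, 5.75% as higher and 4.27% as lower. The differences of the 12 ran from -0.33 to 0.21, and the 95% intervals ran from 0.628-fold at the lowest bound to 1.44-fold at the highest. The groups did not overlap in 5 of the 12, where 32.1% of all tested probe sets had groups that did not overlap. By brightest probe set it was 3 of the 7 genes, against 35.5% of all genes. The median over the 7 genes was 0.08, against 0.02 over all 11849 genes tested and a median size of 0.30 regardless of sign, and it was -0.0017 without further scaling of the deposited signals. The count of genes past the test was 0 in each direction under every alternative run, each single array left out included.

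**Figure D3:**
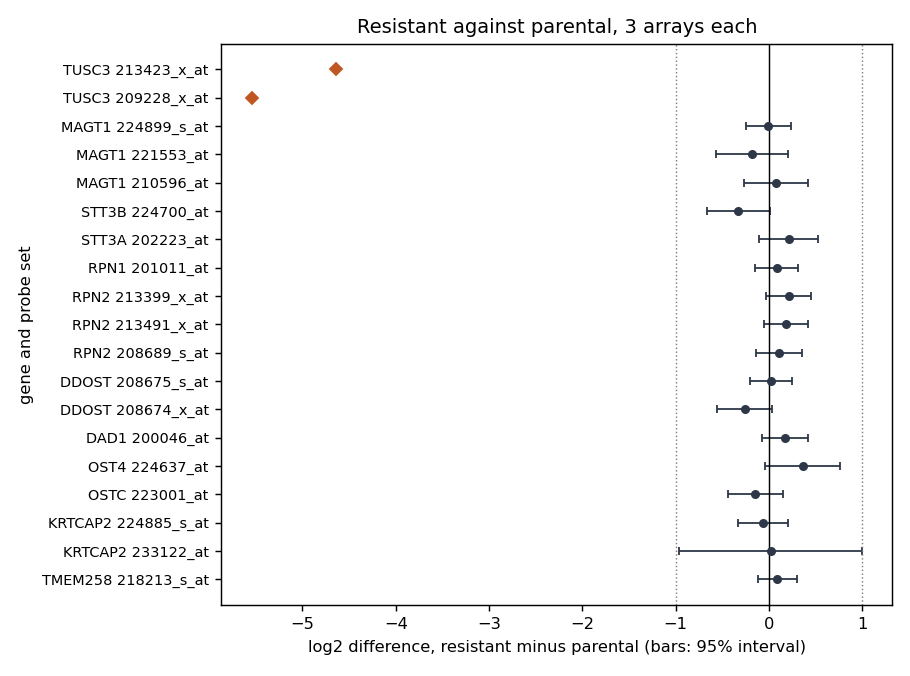
Log2 difference (resistant minus parental) of the tested probe sets of the 8 subunits and the 4 small subunits, with bars for the 95% interval from limma and dotted lines at a 2-fold change. The TUSC3 probe sets, drawn without an interval as they chose the gene, lie at -4.64 and -5.54, and every other interval lies between the dotted lines.

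The complex also has small subunits. OST4 stabilises the catalytic subunit, TMEM258 is found in both forms, and OSTC and KRTCAP2 tie the STT3A form to the translocon. Of these 4 genes 0 rose and 0 fell in limma (0 at an unadjusted p below 0.05, and 0 by the methods' t-test after adjustment). OST4 gave 38.6, 41.9 and 64.1 in parental and 59.4, 62.3 and 59.2 in resistant cells, so that parental array 3 stood with the resistant arrays. Its difference was 0.36 ± 0.18 (limma adjusted p = 0.235), and without parental array 3 it was 0.58 and past the test (limma adjusted p = 0.00192). The differences were -0.15 ± 0.13 for OSTC, -0.07 ± 0.12 for KRTCAP2 and 0.09 ± 0.09 for TMEM258.

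The rest of the pathway, related families and the neighbours of TUSC3 were read through 6 further lists of genes, which with the 4 small subunits held 107 tested genes. Of these 107, 3 rose and 3 fell, 2.8% in each direction, against 7.37% higher and 5.05% lower of all genes. Without parental array 3, 20 rose and 14 fell (18.7% and 13.1%), against 16.9% and 15.3% of all genes.

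In the assembly of the lipid-linked glycan donor, 0 of 23 tested genes rose and 1 fell. The median of the list was 0.23, against 0.02 over all genes. It was 0.05 without probe sets ending in _s_at or _x_at, and 0.14 to 0.28 with single arrays left out. ALG5, which makes the dolichol-linked glucose used to finish the donor, fell from 114.9, 107.2 and 109.6 in parental to 74.8, 73.6 and 78.9 in resistant cells (-0.55 ± 0.10, limma adjusted p = 0.0110). ALG5 was named after its values were seen, its call was lost without resistant array 1 or 2 (limma adjusted p = 0.0723 and 0.0652), and 1 of its 2 tested probe sets passed. The 2 largest differences of the list did not pass: ALG13, part of the enzyme that adds the second sugar, gave -0.70 ± 0.27, and MPI, which makes mannose 6-phosphate, gave 0.69 ± 0.20 (limma adjusted p = 0.124 and 0.0561). For ALG13 the 5 tested probe sets disagreed, from -0.70 to 1.01, and their mean gave -0.053. Without parental array 3, 7 of the 23 genes of the list rose and 3 fell, where 16.9% of all genes rose and 15.3% fell.

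Once the glycan is on the protein it is trimmed and read by lectins of folding control. Of 19 such genes 0 rose and 2 fell. UGGT2, a glucosyltransferase that puts glucose back on misfolded glycoproteins, had levels of 24.4, 38.5 and 16.3 in parental and 7.64, 4.75 and 6.67 in resistant cells. The groups did not overlap, and the difference in this brightest probe set was -1.995 ± 0.30, or 3.99-fold lower (limma adjusted p = 0.00334). The 4 tested probe sets of UGGT2 ran from -1.995 to -0.29 and 3 of them fell, and as the mean of all 4 the difference was -1.11 (limma adjusted p = 0.00920). MCFD2, which helps LMAN1 carry glycoproteins out of the endoplasmic reticulum, fell by 0.82 on the log2 scale (SE 0.17, limma adjusted p = 0.0176), in 1 of 2 tested probe sets. Its levels were 67.9, 78.8 and 49.7 in parental and 36.5, 33.6 and 39.6 in resistant cells. Leaving out parental array 1, or any 1 of the resistant arrays, ended the call (limma adjusted p up to 0.0869). The median of the list was 0.01. Without parental array 3, 1 of the 19 genes rose and 4 fell, where 16.9% of all genes rose and 15.3% fell.

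Of 18 tested genes of the translocon and signal peptidase, 0 rose and 0 fell (limma; 2 higher and 0 lower at an unadjusted p below 0.05, and 0 by the methods' t-test after adjustment), with a median of 0.04. The 2 with the largest differences were SEC61A2, a channel subunit (-0.38 ± 0.26), and among the higher TRAM1, which helps chains into the membrane (0.28 ± 0.10, with 1 of 3 probe sets past the test).

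TUSC3 and MAGT1 share the thioredoxin-like fold with the protein disulfide isomerases, which make and break disulfide bonds in the endoplasmic reticulum. Of 20 tested genes of this family and its partners 3 rose and 0 fell, with a median of 0.19. PDIA6 did not pass by its brightest probe set, though 1 of its 4 tested probe sets did, as higher. AGR3, an anterior gradient protein of secretory epithelium, had levels of 0.775, 1.00 and 1.48 in parental and 48.8, 46.0 and 61.5 in resistant cells. It went from near the array median to far above it, by 5.63 ± 0.24 on the log2 scale (limma adjusted p = 2.55e-06).

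AGR2, its relative with a role in mucin folding, rose from 31.7, 53.4 and 45.4 in parental to 211.6, 183.6 and 195.5 in resistant cells. This was a 4.62-fold difference (2.21 ± 0.18, limma adjusted p = 9.6e-05), and both probe sets of AGR2 passed. PRDX4, a peroxiredoxin that passes oxidising power to the isomerases, rose by 0.61 ± 0.12 (limma adjusted p = 0.0134), and lost this call without any single resistant array (limma adjusted p from 0.0516 to 0.0799). Of the 7 tested intestinal markers 5 also rose, among them KRT20 by 1.57 ± 0.24, where 7.37% of all genes rose. ALPI, CDX1, CDX2, HNF4A and SI, from the same marker list, were not tested for a difference. The part of the risen markers in the rise of these secretory genes was not tested. Without parental array 3, 7 of the 20 genes of the isomerase list rose and 3 fell, where 16.9% of all genes rose and 15.3% fell.

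TUSC3 and MAGT1 have also been described in magnesium transport. Of 13 tested genes for magnesium channels and carriers 0 rose and 0 fell (limma; 2 higher and 1 lower at an unadjusted p below 0.05, and 0 by the methods' t-test after adjustment), with a median of -0.04. By brightest probe set the largest differences were those of CNNM3 (0.47 ± 0.21) and SLC41A1, a magnesium carrier (-0.43 ± 0.18). Both passed the test without parental array 3 (limma adjusted p = 0.0219 and 0.0437). NIPA2, at 0.09 in its brightest probe set, had 1 of 2 tested probe sets past the test as higher (0.53).

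**Figure D4:**
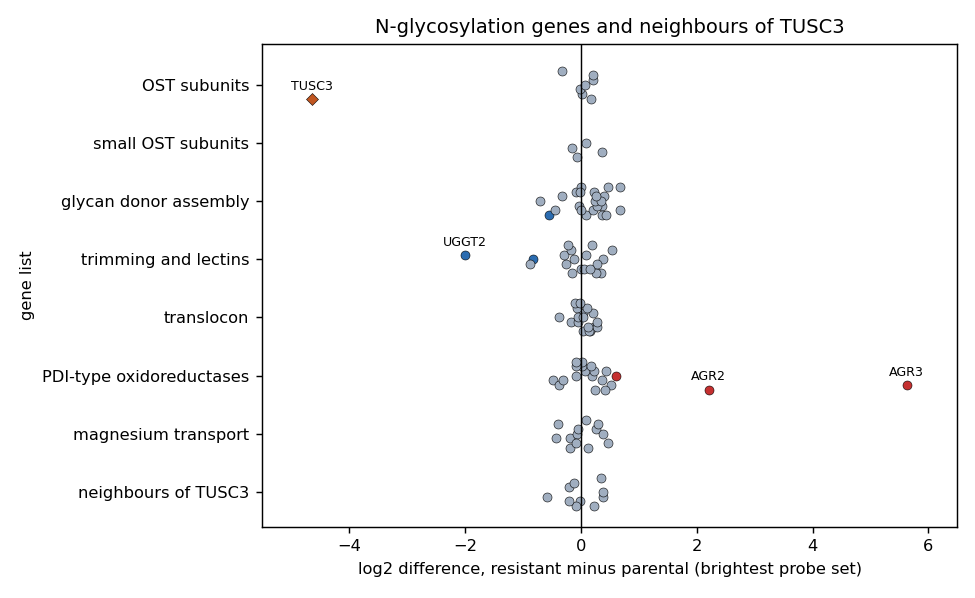
Log2 difference (resistant minus parental) of the brightest probe set of each tested gene in each list, with 1 point per gene (grey, not past the test; red, rose; blue, fell; orange diamond, TUSC3, not tested). The called genes are AGR3, AGR2 and PRDX4 among the isomerases, ALG5 in the donor list, and UGGT2 and MCFD2 in the trimming list.

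TUSC3 lies on chromosome 8, and the 5 nearest genes with a tested probe set on each side were taken in the order of the RefSeq table of GRCh38.p14. Of these 10, 0 rose and 0 fell in limma (0 higher and 1 lower at an unadjusted p below 0.05, and 0 by the methods' t-test after adjustment), with a median of -0.05. LONRF1, the nearest before TUSC3, gave 0.38, and ZDHHC2, a palmitoyltransferase and the nearest after it, gave -0.58 ± 0.19 (limma adjusted p = 0.0769). The 3 tested probe sets of ZDHHC2 ran from -0.96 to -0.42, and 0 of them passed the test. ZDHHC2 had levels of 15.5, 17.5 and 13.6 in parental and 12.3, 8.30 and 10.8 in resistant cells, and without parental array 3 its difference was -0.67 and past the test (limma adjusted p = 0.0168). By brightest probe set the other 8 lay between -0.20 and 0.39, and TUSC3 gave -4.64. Over all tested probe sets of these 8 the differences ran from -0.42 for CNOT7 to 0.72 for FAM86B2-DT. A change of the region as a whole was not tested.

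The 5 genes that followed the TUSC3 probe set 213423_x_at most closely over the 6 arrays were taken by Pearson's r of log2 levels. They were LINC01138 (0.989), ARHGAP44 (0.989), LINC00886 (0.987), LINC00348 (0.984) and NOTCH2NLA (0.984). Like 213423_x_at, all 5 had their lowest level on resistant array 3. The other bright probe set, 209228_x_at, had its highest resistant level (0.130) on that array. The points share their arrays and their scaling, and the difference between the groups enters each r. All 5 were lower in resistant cells, a direction that the choice by r brings with it, with differences from -2.64 for LINC00348 to -0.58 for LINC01138. ARHGAP44, LINC00886 and LINC00348 were bright enough to be tested only through the parental arrays. On every resistant array they lay below the array median, so the size of their differences rests on low signals. The r between the TUSC3 probe sets 213423_x_at and 209228_x_at was 0.852.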

How the data were processed

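RNA of 3 parental and 3 MTX-resistant Caco2 samples was hybridised to Affymetrix HG U133 Plus 2.0 arrays, 1 array per sample. The deposited values are linear MAS5 signal intensity per probe set, made by the authors. The sources used here do not name the MAS5 version or its scaling target. Detection calls are not part of the table, and the number of arrays limits the precision.

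Of 54675 probe sets 62 controls were left out. The 10 zeros were raised to 0.05 signal units, each signal was divided by its array's median, and log2 was taken. A probe set was tested where its mean reached 1 array median (26563). The platform annotation gave 1 symbol to 41091 probe sets, several to 1801 and none to 11721. Of the first, 41037 matched RefSeq. A gene stands by its brightest probe set (11849 genes), and probe sets with several symbols were not named.

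Groups were compared with limma 3.58.1 (lmFit, eBayes with trend, two-sided, R 4.3.3), Benjamini-Hochberg adjusted over all tested probe sets. "Rose" and "fell" mean an adjusted p below 0.05. The fit was tested on simulated data. The methods' t-test was an alternative, as were other scalings, filters, offsets, probe set rules and single arrays left out.

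The members and lists were chosen with earlier results of these data known. Named are all members and small subunits, from each list up to 4 genes with the largest changes past the test (the 2 largest where fewer than 2 passed), 5 neighbours on each side of TUSC3 and the 5 genes most like it. Promoter windows came from RefSeq.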

Additional observations from a re-analysis of the deposited data

How the results depend on the processing

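TUSC3 was lower in resistant cells under every alternative that gave a value, and it gave none with the filter at 3 times the median or without probe sets ending in _s_at or _x_at. Its log2 difference was -2.84 with an offset of 0.5 and ran from -5.36 to -3.51 with single arrays left out. Relative to MAGT1 it was -2.83 with the offset and -5.37 to -3.49 with single arrays left out. The median of the other 7 subunits was -0.0017 without further scaling, where the median of all probe sets was -0.079, and 0.05 to 0.11 with single arrays left out. By its other bright probe set, an alternative added after the data were seen, TUSC3 was at -5.54. Same-numbered arrays did not deviate together (r = -0.018, -0.022 and -0.016) and share only a number. With that number as a block, the pairing left 0 of 7 subunits past the test, TUSC3 at -4.64 and the lists at 3 genes higher and 3 lower.

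List genes past the test numbered 1 higher and 1 lower by the methods' t-test, 1 lower without the intensity trend, and 2 to 20 higher and 1 to 14 lower with single arrays left out, the highest counts without parental array 3 and 1 lower without resistant array 1 or 2. By the t-test the calls of UGGT2, MCFD2, AGR2 and PRDX4 were lost (adjusted p = 0.116, 0.151, 0.0507 and 0.0858), and without the trend those of ALG5, MCFD2 and PRDX4. MPI passed with the filter at 3 times the median (limma adjusted p = 0.0486), and without parental array 3 so did ALG13, MPI and TRAM1. Signs turned, with 0 calls, for DDOST (-0.048 with quantile normalization, -0.063 without further scaling, -0.12 as the mean of its probe sets, and -0.028 to 0.055 with single arrays left out), RPN1 (-0.0017 without further scaling), CTSB (0.096 as the mean of its probe sets, -0.090 to 0.043 with single arrays left out), KRTCAP2 (0.016 without _s_at and _x_at, -0.15 to 0.0019 with single arrays left out) and MAGT1 (-0.024 to 0.021 with single arrays left out). The cause was not tested.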

Other observations

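ALG5 and UGGT2 both lie on chromosome 13, and they were the 2 tested genes of the lists there. Of all 209 tested genes on that chromosome 76 fell (36.4%), against 5.05% of all tested genes. This was noticed after the values were seen, and its part in the difference of ALG5 and UGGT2 was not tested.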
